A study of Danio rerio with 30 samples.

Results

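The comparison described here sets retinas of adult zebrafish (Danio rerio) that were stabbed with a needle in fish kept in DMSO against retinas that were neither injured nor treated. It uses 6 of the 30 RNA sequencing libraries of the study, chosen by their labels: 3 named poke DMSO and 3 named untreated uninjured. All 6 libraries are labelled wild type, and all come from the same experiment. The fit that tested them held 12 libraries of that experiment, among them poked retinas labelled PLX3397 or ZVAD. Those shared in the filter, the scaling and the estimate of spread. The needle went through the back of the eye, and the injured retinas were taken 2 days later. DMSO is the solvent that carried the inhibitors given to other fish of that experiment, and no library here comes from an injured retina without DMSO or from an uninjured retina with it. A change can therefore belong to the injury or to the solvent, and these cannot be told apart. Every one of the 32520 Ensembl gene rows was a member. Of these, 24849 had a count in at least 1 of the 6 libraries and 21334 passed the filter on low counts and were tested.

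The zebrafish retina can replace neurons that it has lost. Its Müller glia, the radial support cells that span the tissue, respond to damage by leaving their resting state, dividing and giving rise to progenitors from which new neurons form. Secreted cytokines and growth factors, reprogramming genes such as ascl1a and lin28a, and inflammatory cells are known to take part in this response.

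The titles of the libraries hold the letters MG, but the extraction text describes whole retinas ground in TRIzol and no sorting. Markers of the retinal neurons were abundant: rod markers summed to 3870, 3750 and 4740 CPM after poke, against 4340, 3290 and 4250 CPM in untreated uninjured retinas, and cone markers to 4580, 4420 and 3260 CPM after poke, against 4170, 4000 and 4380 CPM in untreated uninjured retinas. Lens markers summed to 0.323, 0.638 and 0.439 CPM after poke, against 0.678, 0.744 and 0.543 CPM in untreated uninjured retinas, and markers of the surface epithelium to 1.38, 0.924 and 1.24 CPM after poke, against 2.06, 1.43 and 0.815 CPM in untreated uninjured retinas. The libraries were therefore read as bulk retina, in which fewer cells of a type and less RNA per cell cannot be told apart. CPM stands for counts per 1000000 counts of the scaled library. The files hold reads of a green fluorescent protein transgene, egfp, which the labels of these fish do not mention. Its level was 387, 383 and 490 CPM after poke, against 828, 1150 and 940 CPM in untreated uninjured retinas. The labels do not say whether the 3 libraries of a group came from separate fish, so p-values measure the spread between libraries, which may be technical.

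Total counts were 48285420 to 92198888 in the poke DMSO libraries and 38933511 to 68463160 in the untreated uninjured libraries. In each group 1 library stood apart from the others. The count difference between poke DMSO 1 and 2 was 12.7 in chi-square per degree of freedom, against 228 and 166 between poke DMSO 3 and either of them. Among the untreated uninjured libraries it was 16.2 between replicates 1 and 3, against 137 and 93 for the pairs that include replicate 2. In poke DMSO 3, 174 genes exceeded both other poke libraries more than 4-fold at 5 CPM or more, while no gene did so in poke DMSO 1 or 2. Of the 55 tested genes on a list of microglia and macrophage genes, 32 were among those 174. Untreated uninjured 2 was the highest of the 6 libraries in Müller glia markers, which summed to 7780, 7540 and 7250 CPM after poke, against 16500, 26400 and 18200 CPM in untreated uninjured retinas. The results are given with and without poke DMSO 3 where that library decides them.

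Between poke DMSO and untreated uninjured retinas, edgeR called 6744 genes (31.6% of those tested) at an adjusted p under 0.05. After poke 3888 genes were higher (18.2%) and 2856 were lower (13.4%). Counts of called members of a gene list are to be read beside these shares. By the fitted values 1185 genes rose and 328 fell at least 4-fold. Of the called genes, 160 that rose had no counts in uninjured retinas and 74 that fell had none after poke, and the fitted folds of these depend on the prior count. In 4766 genes (22.3%) all 3 poke libraries lay above all 3 untreated uninjured libraries, and in 4341 (20.3%) all lay below. The median log2 fold change of all genes tested was -0.03. Without poke DMSO 3, 5857 of 22010 genes were called (26.6%), of which 3458 were higher (15.7%) and 2399 lower (10.9%). Of the genes called with all libraries, 5386 were also called in the same direction without that library, and no gene was called in opposite directions. Another 676 rises and 682 falls were called with it and not without it. Among genes tested with all libraries, 241 rises and 198 falls were called only without it.

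**Figure D1:**
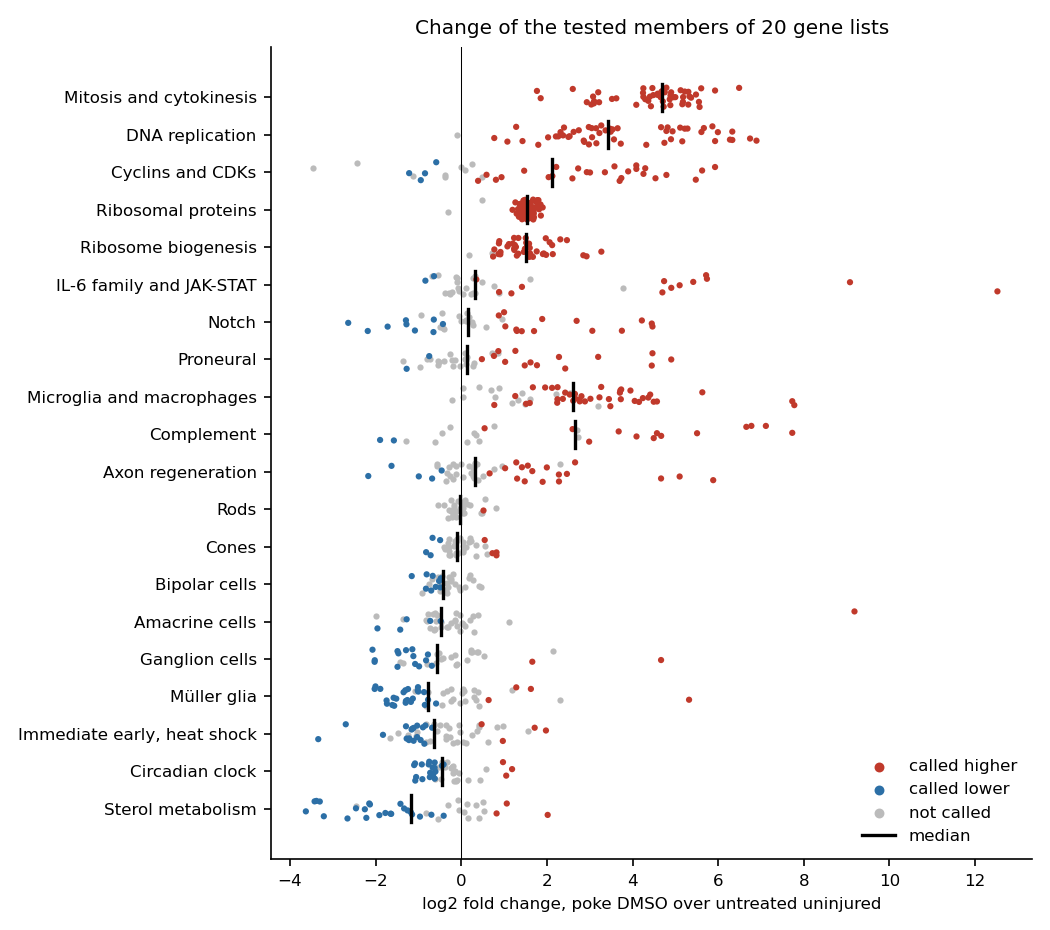
Change of each tested member of 20 gene lists, as log2 fold change of poke DMSO over untreated uninjured retinas (x axis). Each point is a gene, red where called higher, blue where called lower and grey where not called, and the black bar is the median of the list; genes with no counts in a group are drawn at their lower bound. Mitosis (median 4.69) and DNA replication (3.42) lie far to the right, ribosomal proteins form a tight cluster at 1.53, rods centre on -0.02 and sterol metabolism lies at -1.18.

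Genes of dividing cells rose together. All 52 tested genes of mitosis and cytokinesis rose, with a median log2 fold change of 4.69 and a range of 1.77 to 6.49. Of 54 DNA replication genes 53 rose, with a median of 3.42, and MCM6 was the exception. Summed over the members, mitosis genes reached 2370, 2340 and 2560 CPM after poke, against 126, 142 and 121 CPM in untreated uninjured retinas. These sums do not overlap between the groups. Without poke DMSO 3 the same numbers of genes were called, 52 and 53, and the medians were 4.64 and 3.29.

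CHAF1B, part of the complex that loads histones onto new DNA, had 37.2, 37.3 and 47.7 CPM after poke with DMSO, against 0.326, 0.29 and 0.543 CPM in untreated uninjured retinas (log2 fold change 6.74, SE 0.32, adjusted p = 1.19e-08). For TYMS, which makes thymidylate, the values were 64.6, 62.8 and 75.8 CPM, against 0.651, 1.11 and 0.706 CPM in untreated uninjured retinas (log2 fold change 6.33, SE 0.31, adjusted p = 1.57e-08). In both genes the lowest poke library was above the highest uninjured library by a wide margin. The helicase gene CDC45 (log2 fold change 6.33, adjusted p = 3.77e-08) and MCM5 (5.67, adjusted p = 1.01e-08) rose as well. PCNA, the sliding clamp of DNA polymerase, had 399, 379 and 524 CPM after poke with DMSO, against 35, 37.4 and 31.2 CPM in untreated uninjured retinas (log2 fold change 3.65, SE 0.21, adjusted p = 5.21e-08). It was therefore the replication gene of those named here with the highest level in the uninjured retina, and its fold change was smaller than that of the others.

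Among mitotic genes, the condensin subunit NCAPH stood at 43.7, 39.9 and 45 CPM after poke with DMSO, against 0.57, 0.672 and 0.136 CPM in untreated uninjured retinas (log2 fold change 6.49, SE 0.38, adjusted p = 5.99e-08). CDK1, the kinase that drives entry into mitosis, had 64.9, 61.8 and 72.5 CPM, against 1.28, 1.14 and 0.841 CPM in untreated uninjured retinas (log2 fold change 5.93, SE 0.25, adjusted p = 4.35e-09). The midzone genes PRC1 (ENSDARG00000005993) and KIF23 rose by 5.60 and 5.57 on the log2 scale (adjusted p = 4.11e-08 and 1.94e-08). The antigen Ki-67 gene mki67, a usual marker of cycling cells, averaged 218 ± 18.2 CPM after poke and 7.03 ± 0.404 CPM in untreated uninjured retinas (SD, n = 3 each).

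Of 39 cyclin, cyclin-dependent kinase and checkpoint genes 26 rose and 4 fell. CCNB1 (4.79, adjusted p = 7.98e-09) and the cell-cycle transcription factor MYBL2 (5.62, adjusted p = 7.81e-07) were among the rises. The G1 cyclin CCND1, which was already expressed in the uninjured retina, had 260, 242 and 295 CPM, against 30, 40.3 and 28.9 CPM in untreated uninjured retinas (log2 fold change 3.01, SE 0.18, adjusted p = 7.77e-08). Falls included both tested genes named CDKN1B, which encode the cell-cycle inhibitor p27. One of them, CDKN1B (ENSDARG00000029018), stood at 25.3, 26 and 28 CPM after poke with DMSO, against 52.7, 76.8 and 54.8 CPM in untreated uninjured retinas (log2 fold change -1.22, SE 0.15, adjusted p = 3.06e-05), and CDKN1B (ENSDARG00000054271) fell by 0.95 on the log2 scale (adjusted p = 3.92e-05). The p21 gene cdkn1a was not called, with 175, 187 and 115 CPM, against 198, 107 and 174 CPM in untreated uninjured retinas.

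Both genes of maintenance DNA methylation, which copies the mark onto new strands, rose too. UHRF1, which recruits the maintenance methyltransferase, had 77.7, 63.8 and 75.8 CPM after poke with DMSO, against 1.84, 1.07 and 2.77 CPM in untreated uninjured retinas (log2 fold change 5.28, SE 0.29, adjusted p = 3.9e-08). DNMT1, the maintenance enzyme itself, reached 114, 112 and 134 CPM, against 15.2, 14.7 and 19.3 CPM in untreated uninjured retinas (log2 fold change 2.87, SE 0.18, adjusted p = 1.03e-07). In contrast, DNMT3A (ENSDARG00000015566), a de novo methyltransferase, stood at 29, 27.9 and 23.4 CPM, against 45.1, 54.6 and 47.7 CPM in untreated uninjured retinas (log2 fold change -0.88, SE 0.13, adjusted p = 0.000205). Another gene named DNMT3A was not called. On the DNA methylation list as a whole 12 of 30 genes rose and 3 fell, with a median of 0.09.

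Genes of the ribosome rose in a narrow range. Of 71 ribosomal protein genes 69 rose, with a median log2 fold change of 1.53. In 70 of them all poke libraries lay above all uninjured ones, as in 22.3% of all genes tested. The highest value on the list was 1.90. Summed over the list, ribosomal protein genes had 25900, 26100 and 37600 CPM after poke, against 9920, 10600 and 10100 CPM in untreated uninjured retinas. All 3 poke libraries were above the uninjured ones, and poke DMSO 3 was the highest. RPLP1, a stalk protein of the large subunit, stood at 485, 518 and 748 CPM after poke with DMSO, against 145, 171 and 181 CPM in untreated uninjured retinas (log2 fold change 1.82, SE 0.22, adjusted p = 3.03e-05), and RPS12 of the small subunit at 210, 235 and 323 CPM, against 70.3, 70.6 and 70.7 CPM in untreated uninjured retinas (log2 fold change 1.86, SE 0.20, adjusted p = 1.49e-05).

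Factors that assemble ribosomes rose too, with 44 of 46 called higher and a median of 1.51. The nucleolar chaperone npm1a had 131, 125 and 201 CPM after poke with DMSO, against 17.1, 16.6 and 13.7 CPM in untreated uninjured retinas (log2 fold change 3.27, SE 0.23, adjusted p = 3.41e-07). DKC1, the pseudouridine synthase of ribosomal RNA, had 126, 118 and 158 CPM, against 14.4, 16.9 and 21.7 CPM in untreated uninjured retinas (log2 fold change 2.93, SE 0.22, adjusted p = 6.44e-07). NHP2 (2.85, adjusted p = 1.01e-05) and RRP9 (2.47, adjusted p = 6.17e-07) rose as well. Without poke DMSO 3 the counts of called genes were 69 and 44, with medians of 1.33 and 1.39. Genes of the respiratory chain had a lower median of 0.16. Of 50 such genes 8 rose and 1 fell, shares below the 18.2% and 13.4% of all genes tested. When poke DMSO 3 was left out, 4 rose, beside 15.7% of all genes.

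The interleukin 6 family cytokine clcf1 stood at 56.3, 61.5 and 59 CPM after poke with DMSO, against 0.0271, 0 and 0 CPM in untreated uninjured retinas (adjusted p = 3.55e-09), with 1 count over the uninjured group. Its binding partner crlf1a had 339, 350 and 498 CPM, against 11.7, 18.3 and 9.5 CPM in untreated uninjured retinas (log2 fold change 4.90, SE 0.37, adjusted p = 5.78e-07). A leptin gene, lepb, which is known to be switched on in regenerating zebrafish tissue, had 59.7, 60.6 and 118 CPM, against 0.109, 0.272 and 0 CPM in untreated uninjured retinas (log2 fold change 9.08, SE 0.59, adjusted p = 1.58e-07). In clcf1, crlf1a and lepb no poke library came near the uninjured range, and the lepb value was 10.47 without untreated uninjured 2. The second leptin gene, lepa, had 1.22, 1.36 and 1.12 CPM after poke but no counts in untreated uninjured retinas (adjusted p = 0.000158).

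Some receptors and transducers of these signals rose too. The receptor gene lifrb stood at 18.4, 20.9 and 42.1 CPM after poke with DMSO, against 0.895, 0.581 and 0.434 CPM in untreated uninjured retinas (log2 fold change 5.42, SE 0.52, adjusted p = 5.17e-06), with poke DMSO 3 the highest. The shared receptor chain il6st had 123, 120 and 115 CPM, against 49.6, 61.2 and 48.4 CPM in untreated uninjured retinas (log2 fold change 1.17, SE 0.18, adjusted p = 0.000236). STAT3, the transcription factor they activate, had 123, 123 and 104 CPM, against 39.5, 50.7 and 40.8 CPM in untreated uninjured retinas (log2 fold change 1.42, SE 0.13, adjusted p = 4.74e-06). Neither gene named SOCS3, a feedback inhibitor of this pathway, was called with all libraries. The more abundant, SOCS3 (ENSDARG00000025428), had 1520, 1550 and 1680 CPM, against 1130, 2700 and 1310 CPM in untreated uninjured retinas, so that untreated uninjured 2 was above every poke library. The other, SOCS3 (ENSDARG00000026611), had 326, 323 and 492 CPM after poke, against 132, 362 and 151 CPM, as scaled with the NMDA libraries described below. Its groups overlapped through untreated uninjured 2. The interleukin gene il11a had 5.8, 6.56 and 33.9 CPM, against 0.0543, 0.799 and 0.38 CPM in untreated uninjured retinas (log2 fold change 5.10, SE 1.05, adjusted p = 0.00218), with a fold change of 3.78 without poke DMSO 3 and 6.15 without untreated uninjured 2. In all, 13 of 38 genes of this pathway rose (34.2%) and 2 fell (5.26%), beside 18.2% and 13.4% of all genes tested. The median was 0.32. Without untreated uninjured 2, 16 rose and 1 fell, with a median of 0.51.

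**Figure D2:**
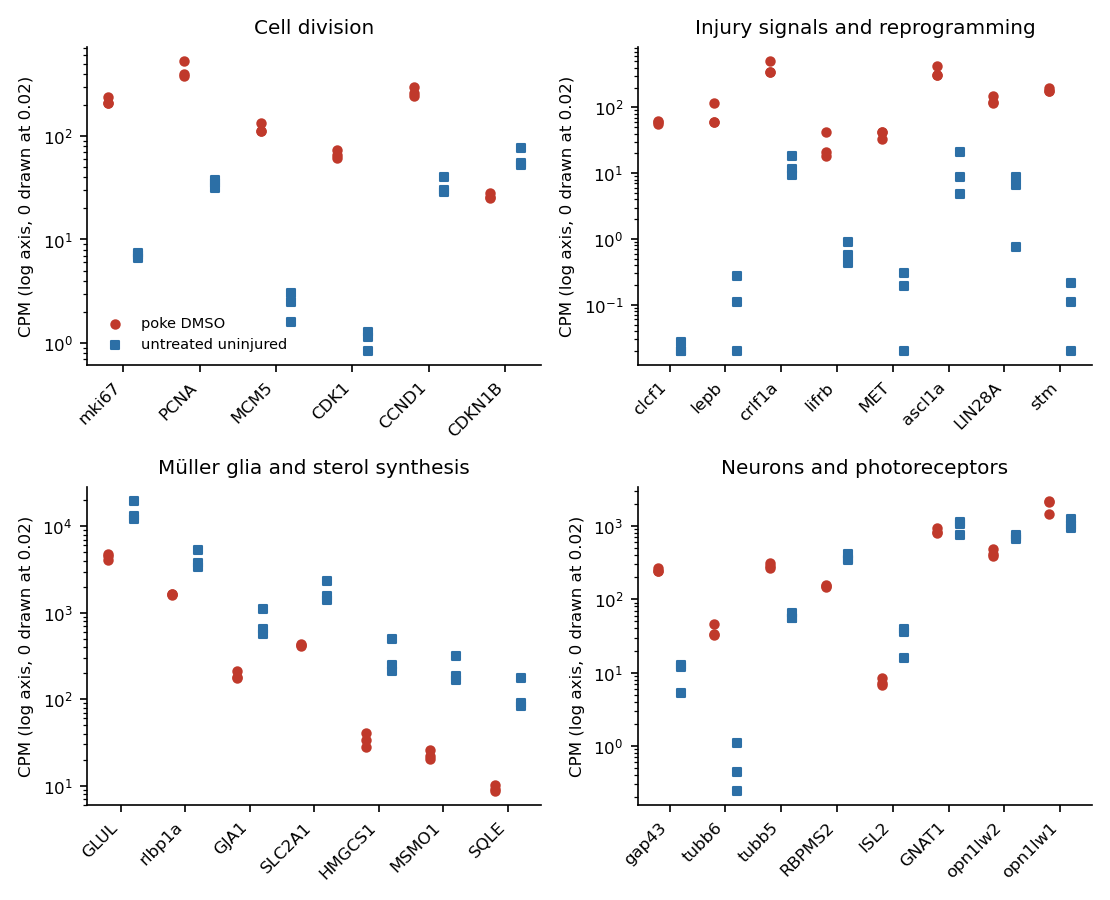
Level of single genes in each library, in CPM on a log axis (0 is drawn at 0.02), with the 3 poke DMSO libraries as red circles and the 3 untreated uninjured libraries as blue squares to their right. LIN28A, CDKN1B, GLUL, SLC2A1, SQLE, RBPMS2 and ISL2 are the genes ENSDARG00000016999, ENSDARG00000029018, ENSDARG00000099776, ENSDARG00000001437, ENSDARG00000079946, ENSDARG00000079578 and ENSDARG00000053499. The groups do not overlap in any gene drawn except GNAT1, and untreated uninjured 2 is the highest square for GLUL, rlbp1a, GJA1 and SLC2A1.

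Growth factor genes moved in both directions, with 12 of 54 higher (22.2%) and 13 lower (24.1%), beside 18.2% and 13.4% of all genes tested. MET, the receptor of hepatocyte growth factor, stood at 42.3, 41.9 and 32.6 CPM after poke with DMSO, against 0.19, 0.309 and 0 CPM in untreated uninjured retinas (log2 fold change 7.72, SE 0.49, adjusted p = 1.3e-07), or 8.66 without untreated uninjured 2. The epidermal growth factor receptor ligand hbegfa, known in zebrafish to start the Müller glia response, had 87.7, 90.2 and 154 CPM, against 14.8, 26.3 and 19.9 CPM in untreated uninjured retinas (log2 fold change 2.44, SE 0.29, adjusted p = 2.86e-05). Falls included FGF8 (ENSDARG00000003399), with 11.5, 12.8 and 10.4 CPM, against 30.8, 67.4 and 36.7 CPM in untreated uninjured retinas (log2 fold change -1.96, SE 0.31, adjusted p = 0.000291). The insulin-like growth factor igf2b (-1.48, adjusted p = 5.72e-05), VEGFA (ENSDARG00000034700) (-1.38, adjusted p = 0.00365) and the matricellular gene CCN1 (-1.71, adjusted p = 3.5e-05) fell too. Of the transforming growth factor beta and bone morphogenetic protein list 14 of 50 genes fell (28.0%) and 7 rose (14.0%). Of all genes tested 13.4% fell and 18.2% rose. TGFB3 had 230, 244 and 205 CPM after poke with DMSO, against 547, 1040 and 642 CPM in untreated uninjured retinas (log2 fold change -1.71, SE 0.21, adjusted p = 3.52e-05), and BMP4 had 2.88, 2.63 and 1.06 CPM, against 14.5, 10.1 and 11 CPM in untreated uninjured retinas (log2 fold change -2.43, SE 0.53, adjusted p = 0.00347).

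Genes linked with reprogramming of Müller glia did not move as a block: 18 of 46 rose, 9 fell and the median was 0.08. The transcription factor gene ascl1a, which is required for Müller glia to divide in zebrafish, stood at 310, 311 and 421 CPM after poke with DMSO, against 4.91, 21.1 and 8.6 CPM in untreated uninjured retinas (log2 fold change 4.90, SE 0.56, adjusted p = 2.35e-05), or 5.70 without untreated uninjured 2. LIN28A (ENSDARG00000016999), an RNA-binding protein of stem cells, had 118, 121 and 148 CPM, against 8.84, 0.744 and 6.54 CPM in untreated uninjured retinas (log2 fold change 4.60, SE 0.62, adjusted p = 8.72e-05). Its level in untreated uninjured 2 was far below that in the other two uninjured libraries, and its fold change was 5.19 without untreated uninjured 1. APOBEC2 (ENSDARG00000113992), of the cytidine deaminase family, had 24, 21.2 and 24.2 CPM, against 0.651, 0.0545 and 0.57 CPM in untreated uninjured retinas (log2 fold change 5.87, SE 0.48, adjusted p = 1.16e-06), or 5.25 without untreated uninjured 2. Another gene named APOBEC2 was not called. The stem cell factor gene nanog had no counts after poke, against 4.21, 0.363 and 3.42 CPM in untreated uninjured retinas. Set against a floor of 3 counts over the poke group, it was at least 149-fold lower after poke (adjusted p = 0.00647). SOX2, a factor of neural stem cells and Müller glia, had 328, 327 and 318 CPM, against 232, 315 and 239 CPM in untreated uninjured retinas, and was not called with all libraries (adjusted p = 0.169) but was higher without untreated uninjured 2 (0.48, adjusted p = 0.0344). The immediate early factor egr1 fell, with 1530, 1630 and 1840 CPM, against 2740, 5360 and 3090 CPM in untreated uninjured retinas (log2 fold change -1.16, SE 0.28, adjusted p = 0.00668).

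Some of the largest rises were in genes of other kinds. The neuropeptide gene cart4 had 10.7, 12.2 and 20.1 CPM after poke but no counts in untreated uninjured retinas. With a floor of 3 counts over the uninjured group it was at least 581-fold higher after poke (adjusted p = 5.21e-08). SOX1 (ENSDARG00000008131), a transcription factor of neural progenitors, had 4.27, 6.12 and 7.7 CPM after poke but no counts in untreated uninjured retinas, which makes it at least 242-fold higher (adjusted p = 7.33e-06). The gene stm, which encodes the otolith matrix protein starmaker, had 175, 175 and 195 CPM, against 0.109, 0.218 and 0 CPM in untreated uninjured retinas (log2 fold change 10.51, SE 0.46, adjusted p = 6.77e-09), or 11.66 without untreated uninjured 2. All 3 were called without poke DMSO 3 as well, at adjusted p values of 4.75e-08, 3.39e-05 and 4.61e-08. The galectin gene lgals2a, also among the 15 largest rises, stood at 76.7, 79.6 and 121 CPM after poke with DMSO, against 0.922, 1.02 and 0 CPM in untreated uninjured retinas (log2 fold change 7.10, SE 0.57, adjusted p = 9.48e-07). Of 46 genes of Wnt signalling 9 were higher and 8 lower, beside 18.2% and 13.4% of all genes tested. Without poke DMSO 3, 3 were higher and 6 lower, beside 15.7% and 10.9% of all genes.

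Notch signalling keeps progenitors from differentiating, and proneural factors oppose it. Of 38 Notch genes 14 rose (36.8%) and 9 fell (23.7%), beside 18.2% and 13.4% of all genes tested. The ligand gene dlc stood at 132, 123 and 102 CPM after poke with DMSO, against 6.24, 5.46 and 4.45 CPM in untreated uninjured retinas (log2 fold change 4.46, SE 0.26, adjusted p = 6.47e-08). The effector gene HES2 (ENSDARG00000068168) had 45.4, 55.1 and 58.1 CPM, against 4.34, 2.41 and 5.1 CPM in untreated uninjured retinas (log2 fold change 3.75, SE 0.32, adjusted p = 1.57e-06), and her4.1, the effector most used as a Notch readout in zebrafish, rose by 1.41 on the log2 scale (adjusted p = 0.0261). The her4.1 call was lost without untreated uninjured 2 or 3 or poke DMSO 1 or 2 (adjusted p = 0.103, 0.07, 0.0511 and 0.0645). Other effector genes fell: HEY2 had 0.775, 0.576 and 0.638 CPM after poke with DMSO, against 4.91, 4.32 and 3.26 CPM in untreated uninjured retinas (log2 fold change -2.64, SE 0.39, adjusted p = 0.000181), and her8a had 2.21, 1.21 and 3.05 CPM, against 7.89, 14.9 and 6.6 CPM in untreated uninjured retinas (log2 fold change -2.19, SE 0.43, adjusted p = 0.00147).

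Among 39 proneural genes 14 rose (35.9%) and 2 fell (5.13%), beside 18.2% and 13.4% of all genes tested. Without untreated uninjured 2, 4 fell. FOXN4, a factor of retinal progenitors that give rise to amacrine and horizontal cells, had 46, 43 and 37.4 CPM after poke with DMSO, against 2.66, 2.81 and 3.64 CPM in untreated uninjured retinas (log2 fold change 3.80, SE 0.18, adjusted p = 1.26e-08). OLIG2, a basic helix-loop-helix factor of progenitors, had 26, 22.5 and 17.4 CPM, against 3.66, 5.64 and 2.88 CPM in untreated uninjured retinas (log2 fold change 2.43, SE 0.31, adjusted p = 5.18e-05). NEUROD1 rose by 0.48 (adjusted p = 0.0133), and atoh7, which specifies ganglion cells, was not called at 0.968, 1.05 and 2.79 CPM, against 1.19, 2.2 and 0.95 CPM in untreated uninjured retinas. Of 34 transcription factor genes of retinal progenitors 16 fell and 7 rose. SOX3 had 10.8, 13.6 and 10.2 CPM after poke with DMSO, against 25.8, 46.4 and 35.1 CPM in untreated uninjured retinas (log2 fold change -1.64, SE 0.25, adjusted p = 0.000256). The eye field genes LHX2 (-1.01, adjusted p = 0.00124) and rx2 (-1.07, adjusted p = 0.00231) fell too.

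Many genes that mark resting Müller glia fell after poke. Of 49 genes 24 fell and 4 rose, with a median of -0.78. The glutamine synthetase gene GLUL (ENSDARG00000099776), which clears glutamate, stood at 4740, 4590 and 4050 CPM after poke with DMSO, against 12000, 19400 and 13300 CPM in untreated uninjured retinas (log2 fold change -1.74, SE 0.21, adjusted p = 4.1e-05). The retinoid-binding protein gene rlbp1a had 1640, 1620 and 1650 CPM, against 3420, 5360 and 3720 CPM in untreated uninjured retinas (log2 fold change -1.35, SE 0.18, adjusted p = 6.69e-05). For GJA1, which encodes the gap junction protein connexin 43, the values were 181, 178 and 214 CPM, against 568, 1100 and 655 CPM in untreated uninjured retinas (log2 fold change -2.02, SE 0.23, adjusted p = 1.8e-05). In GLUL, rlbp1a and GJA1 the poke libraries lay close together and below all uninjured libraries, and untreated uninjured 2 was the highest of the 6. Without untreated uninjured 2 the fold changes were -1.48, -1.11 and -1.67 (adjusted p = 5.45e-05, 6.97e-05 and 1.04e-05), and the list had 24 falls with a median of -0.61.

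Other falls in this group were the caveolin gene CAV2 (-1.75, adjusted p = 2.49e-06) and GAS1 (ENSDARG00000067984) (-1.89, adjusted p = 9.9e-06). The carbonic anhydrase gene cahz fell by 1.18 on the log2 scale (adjusted p = 0.000648). Not all glial genes were lower. GFAP, the intermediate filament of reactive glia, had 495, 464 and 572 CPM after poke with DMSO, against 329, 521 and 357 CPM in untreated uninjured retinas and was not called with all libraries (adjusted p = 0.212). Without untreated uninjured 2 it was higher after poke (0.59, adjusted p = 0.0272), and 7 genes of the list rose in place of 4. The second glutamine synthetase gene, GLUL (ENSDARG00000100003), had 907, 863 and 981 CPM, against 759, 1070 and 808 CPM in untreated uninjured retinas and was not called either.

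Many genes of sterol synthesis, which feeds cell membranes, fell. Of 39 genes of sterol metabolism 23 fell and 3 rose, with a median of -1.18. HMGCS1, an early enzyme of the pathway, stood at 28.4, 33.6 and 41.2 CPM after poke with DMSO, against 211, 499 and 247 CPM in untreated uninjured retinas (log2 fold change -3.21, SE 0.34, adjusted p = 1.12e-05). Squalene epoxidase, SQLE (ENSDARG00000079946), had 8.75, 9.27 and 10.2 CPM, against 82.9, 175 and 91.1 CPM in untreated uninjured retinas (log2 fold change -3.63, SE 0.38, adjusted p = 1.06e-05). LSS, which closes the sterol ring, had 3.89, 4.36 and 3.85 CPM, against 33.8, 60.7 and 35.5 CPM in untreated uninjured retinas (log2 fold change -3.43, SE 0.26, adjusted p = 7.18e-07). All poke libraries were several-fold below all uninjured libraries in these genes. Later steps fell alike: MSMO1 by 3.31 and CYP51A1 by 3.62 on the log2 scale (adjusted p = 6.82e-07 and 2.33e-06). Genes of sterol uptake and sensing, ldlra (-1.91, adjusted p = 0.00595) and insig1 (-2.15, adjusted p = 0.00152, or -1.52 without untreated uninjured 2), fell too.

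HMGCS1, SQLE and LSS were each highest in untreated uninjured 2, and without that library 21 genes fell with a median of -1.10. One of the rises was the nuclear membrane protein and sterol reductase LBR (1.06, adjusted p = 0.000114). Of 44 fatty acid genes 11 fell, among them ACLY (ENSDARG00000099079) (-1.22, adjusted p = 3.65e-05), which makes the acetyl-CoA used for lipids, and 7 rose, or 2 without poke DMSO 3.

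Genes of sugar transport and use fell in part. SLC2A1 (ENSDARG00000001437), a glucose transporter, stood at 424, 439 and 415 CPM after poke with DMSO, against 1400, 2300 and 1550 CPM in untreated uninjured retinas (log2 fold change -2.04, SE 0.18, adjusted p = 2.49e-06). SLC16A1 (ENSDARG00000016963), a lactate transporter, had 9.87, 10 and 9.75 CPM, against 22.5, 41.1 and 30.1 CPM in untreated uninjured retinas (log2 fold change -1.66, SE 0.24, adjusted p = 0.000159). HK2, the hexokinase isoform of growing cells, rose, with 25.9, 25.8 and 38.6 CPM, against 2.69, 4.32 and 3.88 CPM in untreated uninjured retinas (log2 fold change 3.04, SE 0.30, adjusted p = 6.79e-06). On the glycolysis list 17 of 47 genes fell and 2 rose, and another gene named SLC2A1 was not called.

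Clock genes that were called were mostly lower after poke. Of 40 clock genes 18 fell and 3 rose, with a median of -0.46. Without poke DMSO 3, 15 fell and 5 rose, with a median of -0.32. The repressor gene nfil3-6 had 535, 530 and 666 CPM after poke with DMSO, against 1030, 1510 and 1060 CPM in untreated uninjured retinas (log2 fold change -1.06, SE 0.18, adjusted p = 0.000486), and NR1D1, the nuclear receptor REV-ERB alpha, fell by 1.08 on the log2 scale (adjusted p = 0.000978). PER2 was not called (-0.15, adjusted p = 0.393), and aanat2, which encodes the timing enzyme of melatonin synthesis, rose by 1.19 (adjusted p = 7.89e-05). The labels give no hour of collection, and a difference in hour between the groups was not tested.

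Of 54 immediate early and heat shock genes 18 fell and 4 rose, against 13 and 5 without poke DMSO 3. The chaperone gene HSPA8 (ENSDARG00000037403) had 11.8, 10.9 and 9.75 CPM after poke with DMSO, against 96.6, 40.3 and 73.8 CPM in untreated uninjured retinas (log2 fold change -2.70, SE 0.40, adjusted p = 0.000174). NR4A2 (ENSDARG00000044532), an immediate early nuclear receptor, had 10, 10.8 and 12.1 CPM, against 26, 61.3 and 29.5 CPM in untreated uninjured retinas (log2 fold change -1.83, SE 0.27, adjusted p = 0.000162). The groups do not overlap in either gene, while other genes named HSPA8 and NR4A2 on the list were not called. The flow-responsive factors klf2a and klf2b rose (1.71 and 1.98, adjusted p = 0.0015 and 0.00363). In the unfolded protein response list 12 of 49 genes rose (24.5%) and 3 fell (6.12%), beside 18.2% and 13.4% of all genes tested. Without poke DMSO 3, 11 rose and 5 fell. HMOX1, the heme oxygenase induced by oxidative stress, had 24, 21 and 64.8 CPM after poke with DMSO, against 5.64, 3.65 and 3.53 CPM in untreated uninjured retinas (log2 fold change 3.10, SE 0.43, adjusted p = 0.000114), or 2.40 without poke DMSO 3, while the endoplasmic reticulum chaperone HSPA5 was not called (-0.36, adjusted p = 0.479).

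Few photoreceptor genes were called. Of 32 rod genes 1 rose, none fell by the test, and the median was -0.02. GNAT1, the rod transducin, was not called (-0.21, adjusted p = 0.579). Rod members ranged from -0.54 to 0.82 in log2 fold change, so that none changed 2-fold. Among 39 cone genes 4 rose and 4 fell (10.3% each), beside 18.2% and 13.4% of all genes tested. The 2 red opsin genes moved in opposite directions: opn1lw1 had 2170, 2140 and 1450 CPM after poke with DMSO, against 948, 1260 and 1050 CPM in untreated uninjured retinas (log2 fold change 0.82, SE 0.22, adjusted p = 0.013), and opn1lw2 had 422, 385 and 493 CPM, against 714, 656 and 767 CPM in untreated uninjured retinas (log2 fold change -0.72, SE 0.17, adjusted p = 0.00485). The opn1lw1 call was lost without poke DMSO 1 (adjusted p = 0.0512) or untreated uninjured 1 (adjusted p = 0.0535). The opsin genes of a cluster share sequence, and reads that fit several of them may have been split between them.

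Among genes of inner retinal neurons most were not called, and the counts of falls are to be read beside the 13.4% of all genes that fell. Of 35 bipolar cell genes 9 fell and none rose by the test, with a median of -0.43, while 6 fell and 1 rose without poke DMSO 3. GRM6 (ENSDARG00000025671), the glutamate receptor of ON bipolar cells, had 29.8, 31.3 and 24.6 CPM after poke with DMSO, against 51.3, 47.8 and 51.1 CPM in untreated uninjured retinas (log2 fold change -0.81, SE 0.14, adjusted p = 0.000621). Of 37 amacrine cell genes 5 fell, or 3 without poke DMSO 3, and 1, cart4, rose. Of 24 horizontal cell genes 4 fell and 1 rose. Among 65 genes of glutamate, GABA and glycine receptors 4 fell, or 8 without untreated uninjured 2, none rose by the test, and the median was -0.38.

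Ganglion cells send the axons of the optic nerve, and whether the needle cut them was not tested. Of 36 ganglion cell genes 14 fell and 2 rose, with a median of -0.58. The RNA-binding protein gene RBPMS2 (ENSDARG00000079578), a usual marker of these cells, stood at 149, 156 and 150 CPM after poke with DMSO, against 355, 413 and 345 CPM in untreated uninjured retinas (log2 fold change -1.29, SE 0.13, adjusted p = 8.97e-06). The transcription factor gene ISL2 (ENSDARG00000053499) had 7.29, 8.39 and 6.76 CPM, against 39.3, 15.9 and 36.3 CPM in untreated uninjured retinas (log2 fold change -2.03, SE 0.42, adjusted p = 0.00222). Both were lower in every poke library than in any uninjured one. The rises were STMN4 (ENSDARG00000043932) (1.66, adjusted p = 0.000248) and gap43, which is linked with axon growth. Without poke DMSO 3, 10 ganglion cell genes fell and the median was -0.53.

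Some genes of growing axons rose steeply. The growth cone gene gap43 had 243, 268 and 242 CPM after poke with DMSO, against 11.9, 5.34 and 12.6 CPM in untreated uninjured retinas (log2 fold change 4.67, SE 0.40, adjusted p = 1.7e-06). The tubulin gene tubb6 had 33.9, 32.5 and 46.5 CPM, against 0.434, 1.11 and 0.244 CPM in untreated uninjured retinas (log2 fold change 5.88, SE 0.39, adjusted p = 1.97e-07), or 6.80 without untreated uninjured 2. Another tubulin gene, tubb5, had 281, 269 and 317 CPM, against 56.4, 65.5 and 56.4 CPM in untreated uninjured retinas (log2 fold change 2.28, SE 0.14, adjusted p = 9.97e-08). In gap43, tubb6 and tubb5 every poke library was several-fold above every uninjured one. PLPPR3 (ENSDARG00000010144), a phospholipid phosphatase-related gene of axons, rose by 2.66 (adjusted p = 5.36e-05). In all, 17 of 48 genes on the axon regeneration list rose (35.4%) and 5 fell (10.4%), beside 18.2% and 13.4% of all genes tested.

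Immune genes rose, and many were far higher in poke DMSO 3 than in the other poke libraries. Of 55 tested microglia and macrophage genes, of 64 matched, 40 rose and none fell, with a median of 2.61. Without poke DMSO 3, 24 rose, 1 fell and the median was 1.09. The 7 genes matched as defining markers (csf1ra, SPI1, LCP1, CORO1A and 3 named MPEG1) summed to 46.5, 40.9 and 262 CPM after poke, against 18.2, 31.1 and 15.3 CPM in untreated uninjured retinas. Poke DMSO 1 and 2 were thus above the uninjured range in this sum, and poke DMSO 3 was several-fold above both. MPEG1 (ENSDARG00000078569) was at 0 in all 6 libraries. Markers of red blood cells, hbaa1 and alas2, summed to 7.33, 6.8 and 36.5 CPM after poke, against 9.85, 55.1 and 13.5 CPM in untreated uninjured retinas, so that poke DMSO 3 and untreated uninjured 2 were both high. Their part in the immune result was not tested.

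The receptor gene csf1ra, which microglia need to survive, had 10.8, 6.7 and 34 CPM after poke with DMSO, against 4.34, 9.82 and 3.72 CPM in untreated uninjured retinas (log2 fold change 1.51, SE 0.52, adjusted p = 0.0393), and was not called without poke DMSO 3 (0.55, adjusted p = 0.339). Its call was also lost without untreated uninjured 1 or 3 (adjusted p = 0.128 and 0.141), and its value was 2.11 without untreated uninjured 2. SPI1, the myeloid master factor, was not called without poke DMSO 3 either (1.96 with and 0.44 without, adjusted p = 0.0252 and 0.317), nor without untreated uninjured 2 or 3 (adjusted p = 0.0813 and 0.087). MPEG1 (ENSDARG00000055290), which encodes the pore protein of macrophages, had 10.1, 9.99 and 57.1 CPM after poke with DMSO, against 3.53, 6.53 and 4.21 CPM in untreated uninjured retinas, with log2 fold changes of 2.43 with poke DMSO 3 and 1.08 without it (adjusted p = 0.00603 and 0.0234). MPEG1 was thus among the members that were called with and without that library, but its call was lost without replicate 3 of both groups (0.96, adjusted p = 0.0772). The complement gene c1qb, made by microglia, had 5.44, 5.92 and 31.1 CPM, against 0.461, 1.03 and 0.217 CPM in untreated uninjured retinas, and its fold change was 4.57 with poke DMSO 3 and 3.27 without it (adjusted p = 0.00024 and 0.000213), and 5.39 without untreated uninjured 2. The companion gene c1qa had 2.81, 1.77 and 12 CPM after poke but no counts in untreated uninjured retinas (adjusted p = 4.14e-05, or 2.22e-05 without poke DMSO 3). The abundant lipid carrier gene apoeb was not called (0.42, adjusted p = 0.181) with all libraries and was higher without untreated uninjured 2 (0.64, adjusted p = 0.0372).

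**Figure D3:**
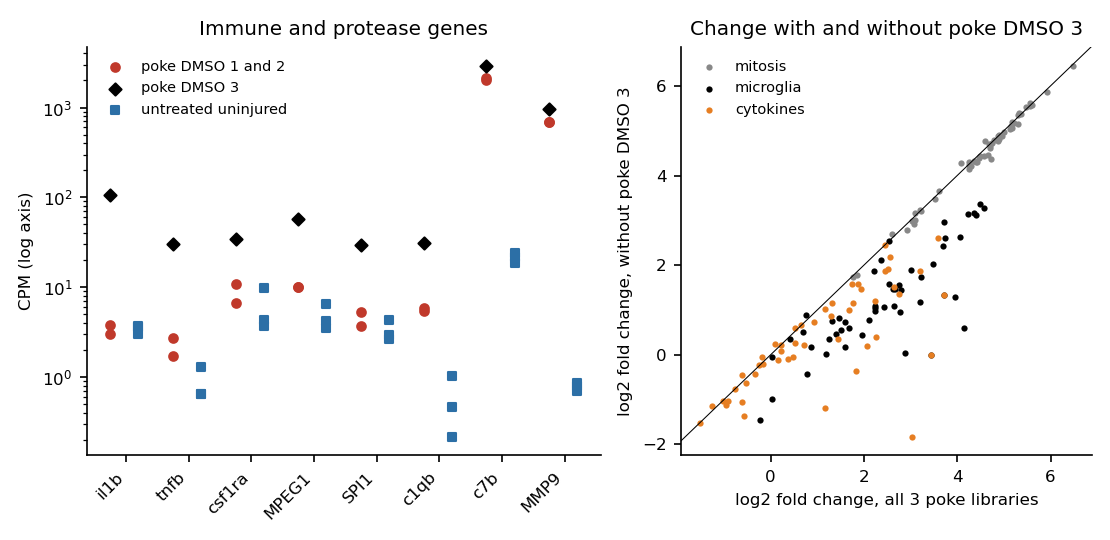
Left, level of 8 immune and protease genes in each library (CPM, log axis), with poke DMSO 1 and 2 as red circles, poke DMSO 3 as a black diamond and untreated uninjured libraries as blue squares; MPEG1 is ENSDARG00000055290. Right, log2 fold change of members of the mitosis, microglia and cytokine lists with all 3 poke libraries (x axis) and without poke DMSO 3 (y axis), with the line of equal values and without genes absent from a group. Mitosis genes lie on the line, while il1b stands at 105 CPM in poke DMSO 3 alone and most microglia genes lie below the line.

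The count of called cytokine genes also changed with that library. On the list of cytokines, chemokines and prostaglandin genes 20 of 56 rose and 7 fell, against 12 and 6 without poke DMSO 3. The interleukin 1 beta gene il1b had 3.01, 3.82 and 105 CPM after poke with DMSO, against 3.69, 3.58 and 2.99 CPM in untreated uninjured retinas. Its log2 fold change was 3.45 (adjusted p = 0.0267) with all libraries and 0.00 (adjusted p = 1) without poke DMSO 3, and it was not called either when any 1 uninjured library was left out (adjusted p = 0.0775 to 0.086). The tumour necrosis factor genes behaved alike: tnfb had 1.74, 2.73 and 30.4 CPM, against 0.651, 1.31 and 0.651 CPM in untreated uninjured retinas (log2 fold change 3.71, adjusted p = 0.00643, or 0.0516 without that library), with a fold change of 1.34 there. For tnfa the values were 0, 0.0411 and 6.3 CPM after poke and no counts in untreated uninjured retinas (adjusted p = 0.0404, or 0.486 without poke DMSO 3, and 0.0908 to 0.0989 without any 1 uninjured library). The neutrophil attractant cxcl8a had 0.258, 0.534 and 3.85 CPM after poke but no counts in untreated uninjured retinas (adjusted p = 0.00113, or 0.000648 without poke DMSO 3).

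Prostaglandins are made by cyclooxygenases. The cyclooxygenase gene PTGS2 (ENSDARG00000010276) had 1030, 1060 and 2170 CPM after poke with DMSO, against 1170, 3830 and 1510 CPM in untreated uninjured retinas and was not called (adjusted p = 0.408), and its highest value was in untreated uninjured 2. The isoform gene ptgs1 fell, with 20.8, 21.5 and 21.1 CPM, against 53.5, 73.2 and 54.9 CPM in untreated uninjured retinas (log2 fold change -1.52, SE 0.15, adjusted p = 5.22e-06). Of 17 neutrophil genes 10 rose, with a median of 4.14, or 3.33 with the genes absent from uninjured retinas at their lower bound. When poke DMSO 3 was left out, 8 rose and the median was 1.74. The 2 matched defining markers, lyz and cxcr1, summed to 1.31, 1.07 and 5.4 CPM after poke, against 0.272, 0 and 0.0814 CPM in untreated uninjured retinas. All poke libraries were above the uninjured ones, at low levels. Of 12 lymphocyte genes 1 rose and 1 fell (8.33% each), beside 18.2% and 13.4% of all genes tested.

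The complement gene c7b rose as steeply without poke DMSO 3 as with it. This gene of the terminal complement complex stood at 2130, 2040 and 2930 CPM after poke with DMSO, against 18.8, 24.3 and 21.6 CPM in untreated uninjured retinas (log2 fold change 6.78, SE 0.33, adjusted p = 1.57e-08), or 6.59 without poke DMSO 3. Of 26 complement genes, of 37 matched, 13 rose and 2 fell, against 12 and 3 without that library. The median was 2.67, or 2.65 with absent genes at their bound, and 0.52 without poke DMSO 3. The falls were c8b (-1.58, adjusted p = 0.000574) and MASP1 (-1.90, adjusted p = 0.000105), both scarce. Of 41 interferon and antigen presentation genes 15 rose (36.6%) and none fell by the test, beside 18.2% and 13.4% of all genes tested. The guanylate-binding protein gene gbp1 had 10.2, 11.2 and 19.1 CPM after poke with DMSO, against 0.57, 0.744 and 0.814 CPM in untreated uninjured retinas (log2 fold change 4.24, SE 0.29, adjusted p = 2.38e-07). The invariant chain gene cd74a was not called with all libraries (-0.22, adjusted p = 0.806) and was lower without poke DMSO 3 (-1.45, adjusted p = 0.018).

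Matrix proteases and matrix genes were split. MMP9, a gelatinase, stood at 691, 696 and 956 CPM after poke with DMSO, against 0.868, 0.708 and 0.787 CPM in untreated uninjured retinas (log2 fold change 9.96, SE 0.32, adjusted p = 8.5e-10). The metalloprotease adam8a had 96.7, 91.1 and 170 CPM, against 2.55, 0.454 and 2.31 CPM in untreated uninjured retinas (log2 fold change 6.12, SE 0.71, adjusted p = 2.63e-05). Of 41 protease and inhibitor genes 15 rose (36.6%) and 9 fell (22.0%), beside 18.2% and 13.4% of all genes tested. The falls included mmp23bb, at 9.55, 12.7 and 13.5 CPM, against 50.2, 87.5 and 48 CPM in untreated uninjured retinas (log2 fold change -2.38, SE 0.23, adjusted p = 5.87e-06), and ADAMTS1 (-1.67, adjusted p = 0.000242). Among 57 collagen and matrix genes 16 rose (28.1%) and 12 fell (21.1%), beside 18.2% and 13.4% of all genes tested. The list median was 0.22. Without poke DMSO 3, 12 rose and 12 fell, and the median was -0.08. The fibronectin gene FN1 (ENSDARG00000019815) had 42.6, 51.9 and 46.5 CPM after poke with DMSO, against 2.74, 3.05 and 2.63 CPM in untreated uninjured retinas (log2 fold change 4.06, SE 0.16, adjusted p = 3.34e-09), and the cartilage collagen gene COL2A1 (ENSDARG00000011407) had 79.5, 79.4 and 87.6 CPM, against 334, 618 and 357 CPM in untreated uninjured retinas (log2 fold change -2.41, SE 0.22, adjusted p = 3.08e-06). Neither gene named TNC, which encodes tenascin C, was called. ANXA2, an annexin, had 13.1, 12.4 and 28.6 CPM, against 0.109, 0.472 and 0 CPM in untreated uninjured retinas (log2 fold change 6.34, SE 0.71, adjusted p = 1.75e-05), or 8.33 without untreated uninjured 2.

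The marker sums of the next 3 cell types were highest in poke DMSO 3 or in untreated uninjured 2. Of 43 endothelium and mural genes 15 rose (34.9%) and 4 fell (9.3%), beside 18.2% and 13.4% of all genes tested. Without poke DMSO 3, 6 rose and 4 fell, beside 15.7% and 10.9% of all genes. The 4 defining markers cdh5, kdrl, pecam1a and TIE1 summed to 82.7, 81.8 and 135 CPM after poke, against 54.3, 87.9 and 64.9 CPM in untreated uninjured retinas. The 7 matched pigment epithelium markers summed to 38.9, 42.9 and 85.3 CPM after poke, against 22, 54.1 and 29.7 CPM in untreated uninjured retinas. The most abundant, RPE65 (ENSDARG00000007480), overlapped, with 20, 24.1 and 51.3 CPM after poke, against 18.6, 46.8 and 25.4 CPM. In contrast, TYRP1 (ENSDARG00000056151), pmela and DCT were higher in every poke library than in any uninjured one. TYRP1 had 8.61, 9.93 and 17.2 CPM after poke, against 1.36, 3.59 and 2.66 CPM. On the pigment epithelium list 7 of 26 genes rose (26.9%) and 4 fell (15.4%), beside 18.2% and 13.4% of all genes tested. Oligodendrocyte markers summed to 9.88, 9.21 and 26.8 CPM after poke, against 19.9, 52.2 and 27.6 CPM in untreated uninjured retinas, highest in untreated uninjured 2. The crystallin genes CRYBB2 and CRYBA4 differed in direction: CRYBB2 had 35.9, 34.9 and 42.3 CPM after poke with DMSO, against 1, 0.599 and 0.407 CPM in untreated uninjured retinas (log2 fold change 5.82, SE 0.26, adjusted p = 7.66e-09), and CRYBA4 had 3.07, 3.8 and 4.89 CPM, against 19, 24.4 and 20.4 CPM in untreated uninjured retinas (log2 fold change -2.44, SE 0.20, adjusted p = 1.39e-06), while the lens markers above were near 0 in all libraries.

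Further wild-type retinas of the study were taken 2 days after NMDA, a glutamate receptor agonist that kills retinal neurons when it is put into the eye. They were untreated and have uninjured controls of their own, so no library is shared with the needle poke. The difference between the 2 changes was tested in a joint edgeR fit of 12 libraries and 20458 genes, in which type of injury, DMSO and experiment cannot be told apart. In that fit 7831 genes (38.3%) were called after poke, 22.8% higher and 15.5% lower, and 12872 (62.9%) after NMDA. Both changes were called in 6616 genes, 84.5% of the poke calls and 51.4% of the NMDA calls. Of these, 6497 went the same way (98.2%), 4053 up and 2444 down. Another 71 were higher after poke and lower after NMDA, and 48 the reverse. Across genes, which are not independent, the 2 changes correlated with a Pearson r of 0.69 and a Spearman rho of 0.70.

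The changes themselves differed in 7180 genes (35.1%), with a more positive poke change in 3497 (17.1%) and a more negative one in 3683 (18.0%). Genes of dividing cells rose in both, with smaller log2 fold changes after poke. For mitosis the median was 4.73 after poke and 6.84 after NMDA, and the difference was called negative in 48 of 52 genes. For DNA replication the medians were 3.53 after poke and 4.79 after NMDA, with 43 of 53 called negative. Injured and uninjured levels both enter these differences, and their parts were not separated for the lists. KIF14 averaged 21.1 CPM after poke and 2.09 CPM in its untreated uninjured retinas, against 34.2 CPM after NMDA and 0.151 CPM in its uninjured retinas. For MCM5 the means were 116 and 2.24 CPM in the poke experiment, against 312 and 1.62 CPM in the NMDA experiment. Ribosomal protein genes followed the same order, 1.58 after poke and 2.66 after NMDA, with 69 of 71 called negative.

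The list medians of neuronal genes were nearer 0 after poke than after NMDA. Rod genes had a median of 0.03 after poke and -1.66 after NMDA, and the difference was called positive in 30 of 32. Cone genes stood at -0.04 after poke and -1.42 after NMDA (30 of 39 positive), and bipolar cell genes at -0.38 after poke and -1.36 after NMDA (24 of 35). Ganglion cell genes, at -0.54 after poke and -1.62 after NMDA, differed in 19 of 35. Müller glia genes had closer medians, -0.73 after poke and -0.75 after NMDA. Of 48 such genes 11 differed upward and 7 downward, beside 17.1% and 18.0% of all genes in the joint fit.

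**Figure D4:**
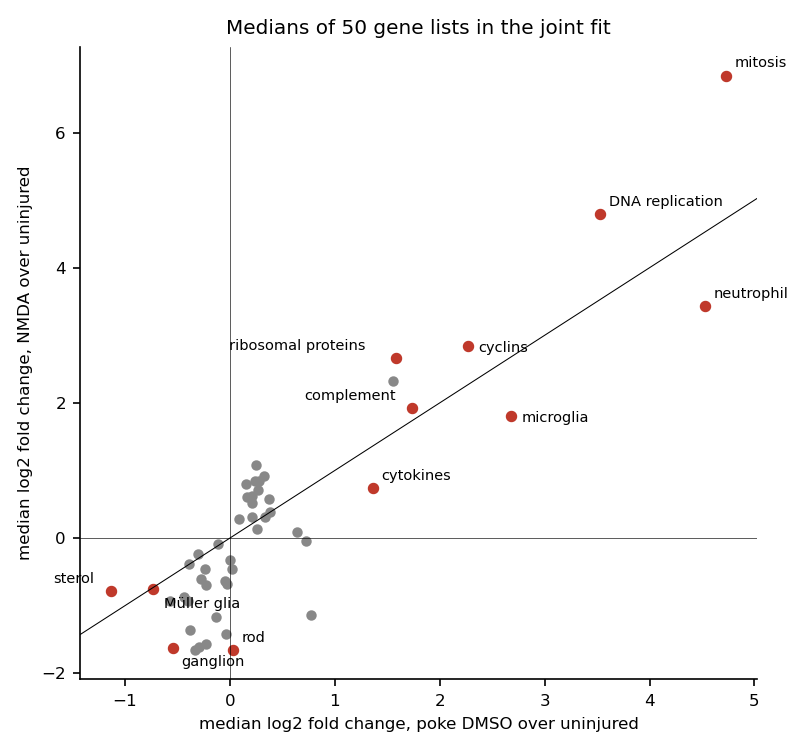
Median log2 fold change of each of 50 gene lists after poke with DMSO (x axis) and after NMDA (y axis), each over the uninjured retinas of its own experiment and both from the joint fit. Points are lists, red where named, and the line marks equal medians. Mitosis lies above the line at 4.73 and 6.84, and rods lie below it at 0.03 and -1.66.

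The named genes whose changes differed included reprogramming, mitotic and matrix genes. LIN28A (ENSDARG00000016999) had 115, 117 and 147 CPM after poke and 8.46, 0.685 and 6.26 CPM in its untreated uninjured retinas, against 210, 176 and 226 CPM after NMDA and 0, 0 and 0.0754 CPM in the uninjured retinas of that experiment. The uninjured retinas of the NMDA experiment held 2 counts of LIN28A in all, so no fold is given, and the changes were called different (adjusted p = 0.00112). In stm there were 170, 169 and 194 CPM after poke and 0.104, 0.2 and 0 CPM in its untreated uninjured retinas, against 1660, 1010 and 2620 CPM after NMDA and 0, 0 and 0.0377 CPM in the uninjured retinas of that experiment, where the last hold 1 count, and the changes were called different as well (adjusted p = 0.00855, or 0.129 without untreated uninjured 2). The condensin gene SMC2 rose by 4.46 after poke and 8.71 after NMDA (difference -4.25, adjusted p = 9.13e-05). It had 111, 106 and 135 CPM after poke and 3.76, 8.36 and 3.56 CPM in its untreated uninjured retinas. After NMDA it had 170, 188 and 191 CPM, against 0.29, 0.543 and 0.452 CPM in the uninjured retinas of that experiment. The uninjured groups thus lay further apart in ratio than the injured groups. Of the genes with a more positive poke change, the matrix gene abi3bpb had 31.7, 32.2 and 34 CPM after poke and 271, 489 and 292 CPM in its untreated uninjured retinas, against 0.836, 0.607 and 1.54 CPM after NMDA and 349, 287 and 262 CPM in the uninjured retinas of that experiment. It changed by -3.42 after poke and -8.24 after NMDA on the log2 scale, a difference of 4.81 (adjusted p = 1.85e-05). The protease gene prss56, known from Müller glia, changed by -2.25 after poke and -6.19 after NMDA (difference 3.94, adjusted p = 5.12e-05). The invariant chain gene cd74a changed by -0.15 after poke and -3.86 after NMDA (difference 3.71, adjusted p = 0.00519), and the difference was 2.46 without poke DMSO 3.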

How the data were processed

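Whole-retina RNA of 6 libraries was compared, 3 of poke with DMSO and 3 untreated uninjured. The authors deposited estimated counts per gene, made with cutadapt 4.8, FastQC 0.11.8, STAR 2.7.8a, RSEM 1.3.3 and GRCz11, per the submitters' processing notes; the deposited values are whole numbers. The table has 9 columns that match no sample used here, and these were left out. The fit held 4 groups of 3 libraries: poke with DMSO, with PLX3397 or with ZVAD, and untreated uninjured. On these, edgeR 4.0.16 (R 4.3.3) fitted a quasi-likelihood model with filterByExpr and TMM scaling. Contrasts were adjusted by the Benjamini-Hochberg method over all genes tested (threshold 0.05). CPM use the scaled library sizes. Rows of transgenes stayed out of the test. Gene names come from a table of Ensembl IDs and symbols, which writes many in capitals, and from RefSeq synonyms. Names on the lists were matched by them, and an ID is given where several genes share a symbol. For FGF8, SQLE, ACLY, GRM6, STMN4 and PLPPR3 another gene of the same symbol was on the list and was not called.

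The members and the 50 gene lists were chosen with earlier results of these data known. Named genes follow a rule that gives 329: the 15 largest changes each way at 5 CPM or more, up to 4 called members in the majority direction and 2 in the other of each list at 1 CPM or more, 8 largest differences from NMDA each way, and a fixed set named whatever their result. The text gives those that a group's description turns on. Same-numbered libraries did not deviate together, so the numbers were not taken as pairs. With 3 libraries a group, of which 1 stood apart, this cannot exclude a pairing. The fits were tested on simulated data, where the direction was recovered for nearly all changed genes, but a part of the changed genes was not called, mostly those that vary more between libraries. Alternatives were DESeq2 1.42.0 and its size factors, limma 3.58.1 voom, other filters, other sets of libraries, a replicate block and each library left out. With 3 against 3 libraries an exact permutation test cannot go below 0.1, so none is given. Counts depend on how RSEM divided reads between near-identical genes, and strandedness is not given in the sources used here. A few results are not reported here.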

Additional observations from a re-analysis of the deposited data

Results flagged for a closer look

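The change after poke with DMSO differed from the change after NMDA in 7180 of 20458 genes in the joint edgeR fit, by a test of the difference itself. Among the named genes the difference, as poke change minus NMDA change on the log2 scale, was -4.25 for SMC2, 4.81 for abi3bpb, 3.94 for prss56 and 3.71 for cd74a, or 2.46 for cd74a without poke DMSO 3. The difference was also called for LIN28A (ENSDARG00000016999) (adjusted p = 0.00112) and stm (adjusted p = 0.00855, or 0.129 without untreated uninjured 2), for which no fold is given, since the uninjured retinas of the NMDA experiment held 2 and 1 counts of these genes. Type of injury, DMSO and experiment cannot be told apart in these differences.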

How the results depend on the processing

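With limma voom and sample quality weights 4372 genes were lower after poke, against 2856 with edgeR; the cause was not tested. The other alternatives kept the counts within 1.5 times: 6831 genes were called with DESeq2 size factors, 7723 with DESeq2, 6451 without a filter, 6682 with a filter of 1 CPM and 5503 from the 6 libraries alone. Leaving out 1 library at a time gave 5541 to 6556 called genes, 3284 to 3924 higher and 2257 to 2632 lower. For the difference from NMDA it gave 5533 to 8658 called genes, 2742 to 4249 positive and 2744 to 4409 negative. With a replicate block 6388 genes were called after poke, and 5736 for the difference; the correlation of same-numbered libraries was 0.0428, -0.0538 and -0.0462, so the numbers were not taken as pairs. Replicate 3 of each group has a library number apart from those of the other 4 libraries, and without both 5209 genes were called. Without poke DMSO 3, untreated uninjured 2 and 2 libraries of other poke groups that were also taken to lie apart, 8442 were called. The fold change of il1b was -0.00 without poke DMSO 3, 4.00 without poke DMSO 1 and -0.13 without replicate 3 of each group. That of SOCS3 (ENSDARG00000025428) was 0.35 without the 4 libraries that lay apart, and there edgeR called it higher (adjusted p = 0.00407). Of 140 named results 122 kept their direction and their side of the threshold under all alternatives run. Depth limits what can be said of genes with few counts in uninjured retinas, whose folds move with single libraries.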
